A study of Homo sapiens with 10 samples.

Results

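Genes of the ubiquitin system and the proteasome were followed in breast cancer cells (BCCs) sorted by the activity of the Oct4A promoter. A gene was a member when its symbol began with PSMA, PSMB, PSMC, PSMD, PSME, UBE2, FBXO, FBXL or FBXW, or with USP or CUL and a digit, leaving out UBE2C, PSMB8 and PSMB9. This gave 107 of the 12083 genes on the table, measured by 186 probe sets, and each gene was represented by its brightest probe set, the one with the highest mean over all 10 arrays. The cells were MDA-MB-231, a basal-like human breast cancer line from a metastatic site, stably transfected with pEGFP1-Oct3/4, a plasmid that places GFP under the Oct4A promoter, and selected with neomycin. All 3 subsets carried the reporter. Oct4hi BCCs were the top 5% of cells by GFP intensity (4 arrays), Oct4med BCCs lay between the extremes (2 arrays), and Oct4low BCCs were the lowest 5% per the labels (4 arrays), although the text of the study gives a wider gate for them. GFP reports promoter activity of the transfected construct and not the Oct4 transcript, which was not analysed here, and the sources used here do not say whether the transfectants were a clone or a pool.

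Ubiquitin is activated by an E1 enzyme, passed to an E2 conjugating enzyme (the UBE2 family) and attached to a protein chosen by an E3 ligase. The largest group of E3 ligases is built on a cullin scaffold, and in the best known of these an F-box protein (FBXO, FBXL or FBXW, named for their substrate-binding domains) picks the substrate. Deubiquitinases such as the USP family remove the mark, and the proteasome, a barrel of alpha and beta subunits (20S) capped by a regulatory particle (19S) or by an activator, degrades the marked protein. The system sets the timing of the cell cycle and clears damaged proteins in every cell, and proteasome load is a known vulnerability of many cancer cells.

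The values were log2 intensities of Affymetrix U133 Plus 2.0 arrays. They are relative to each array, so levels are compared for 1 probe set between subsets and never between probe sets. Of the 107 members, 86 had a probe set at or above its array's median in at least 2 arrays and were tested with 7639 genes in all, and 21 were too dim to be tested, among them UBE2E1, FBXO38, FBXO42, FBXW2, USP2, USP25, USP33 and USP48. The authors had left out probe sets that changed little, so the table held 10 genes named for the 20S and 19S particles and shares of tested members are not shares of the families. Replicates of a subset correlated at r = 0.987 to 0.994 across tested probe sets and arrays of different subsets at r = 0.957 to 0.981. The labels call the arrays biological replicates, and p-values reflect only the spread among these arrays. Among markers of the line, ANXA1, CAV1, CAV2, CD44 and SPARC were tested, and 4 of these 5 were lower in Oct4hi than in Oct4low BCCs. Of all tested genes 14.8% were lower there. Mean levels over the 7 list genes on the table, with the untested VIM and MSN among them, were 8.74 to 8.85 in Oct4hi, 8.99 to 8.9999 in Oct4med and 9.04 to 9.12 in Oct4low arrays. VIM, a defining mesenchymal filament, had 1 probe set on the table after the authors' filter. Its means were 4.04 in Oct4hi, 3.75 in Oct4med and 3.96 in Oct4low BCCs, too dim to be tested. The level of VIM in these cells cannot be read from this probe set. The leukocyte marker PTPRC was at 3.09, 3.16 and 3.19 in Oct4hi, Oct4med and Oct4low BCCs and was too dim as well, as was CD53. Of the leukocyte markers bright enough to test, CORO1A was at 7.18, 6.86 and 6.71 in these subsets. It was higher in Oct4hi than in Oct4low BCCs by 0.48 (limma's moderated test, adjusted p = 0.000549), and CD3E did not pass there (-0.17, adjusted p = 0.333).

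As a family, the members changed about as often as other genes, and they changed in both directions. Between Oct4hi and Oct4low BCCs, 17 of the 86 tested members (19.8%) were higher and 12 (14.0%) lower in Oct4hi BCCs, against a background over all tested genes of 20.4% higher and 14.8% lower (limma's moderated test, Benjamini-Hochberg adjusted p under 0.05, as in every comparison here). The median change of the members was 0.04 on the log2 scale, with 0.02 over all genes. Between Oct4med and Oct4low BCCs, 7 members (8.14%) were higher and 8 (9.3%) lower in Oct4med BCCs, against a background of 5.68% and 11.7%, and the median change was -0.04 for the members and 0.03 for all genes. Between Oct4hi and Oct4med BCCs, 17 members (19.8%) were higher and 12 (14.0%) lower in Oct4hi BCCs, against 18.2% and 9.63%, with medians of 0.06 and -0.01. The comparisons share arrays, so their counts are not independent of each other. Across the 3 subsets, limma's moderated F-test called 44 members (51.2%), against 43.8% of all tested genes. Changes were small on the brightest probe sets, where no member passed 2-fold between Oct4hi and Oct4low BCCs or between Oct4hi and Oct4med BCCs, and 3 did between Oct4med and Oct4low BCCs. With the values quantile normalized again, Oct4hi against Oct4med BCCs gave 10 higher and 16 lower members, and with the arrays shifted to a common median 19 higher and 4 lower. Without Oct4med replicate 1, that comparison gave 4 higher and 3 lower members, and Oct4med against Oct4low BCCs gave 4 and 3. The median level of the tested members was 7.26 in that array, 7.43 in Oct4med replicate 2 and 7.43 to 7.54 in the Oct4hi and Oct4low arrays. The part of RNA quality or labelling in this difference, and in the levels of Oct4med BCCs, was not tested.

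**Figure D1:**
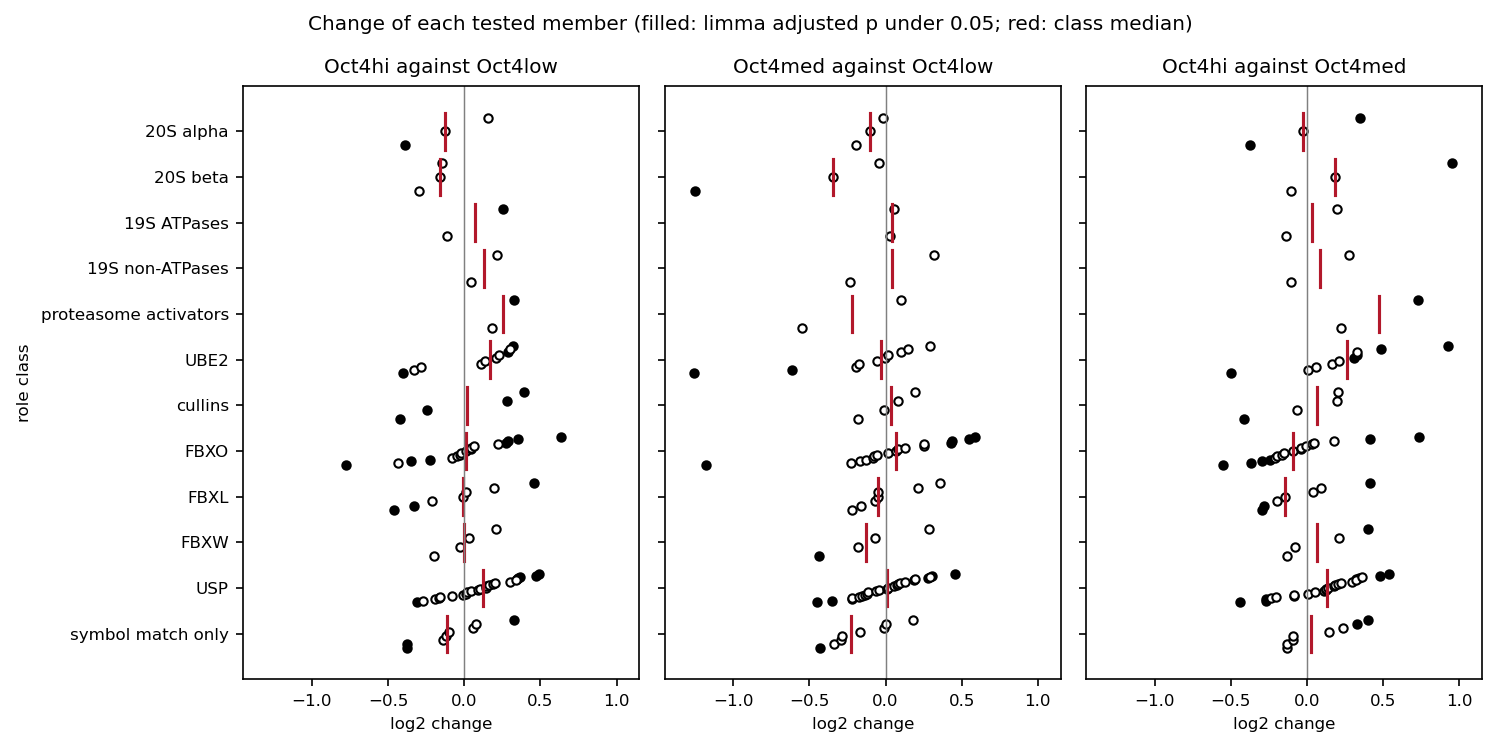
Log2 change of each of the 86 tested members (horizontal axis) by role class (vertical axis) in Oct4hi against Oct4low, Oct4med against Oct4low and Oct4hi against Oct4med BCCs; filled points have an adjusted p under 0.05, open points do not, and the red line is the class median. In most classes members lie on both sides of 0, and the 3 points beyond -1 in Oct4med against Oct4low BCCs are UBE2B, PSMB7 and FBXO7.

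FBXO32 had the largest change of any member between Oct4hi and Oct4low BCCs and the lowest adjusted p in that comparison. It encodes atrogin-1, an F-box protein best known from wasting muscle, where FOXO factors induce it. Its log2 intensity was 10.46, 10.52, 10.49 and 10.66 in Oct4hi BCCs, 11.08 and 11.09 in Oct4med BCCs, and 11.28, 11.32, 11.29 and 11.35 in Oct4low BCCs. The subsets did not overlap, and the order was the reverse of the order of GFP. The change in Oct4hi against Oct4low BCCs was -0.78 ± 0.07 (SE), a ratio of 0.584 (adjusted p = 7.73e-06). In Oct4hi against Oct4med BCCs it was -0.55 ± 0.08 (adjusted p = 0.000685), and Oct4med BCCs differed from Oct4low BCCs by -0.23 ± 0.08, which did not pass (adjusted p = 0.0731).

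All 7 FBXO32 probe sets passed the test in Oct4hi against Oct4low BCCs, with changes of -1.09 to -0.53, and the second and the third brightest of them passed 2-fold, with ratios of 0.480 and 0.470. Of these, 6 also passed in Oct4hi against Oct4med BCCs, with -0.95 to -0.52. The exception, the fourth brightest of them, was at 8.30, 8.05, 7.87 and 8.83 in Oct4hi BCCs, 7.20 and 8.04 in Oct4med BCCs, and 8.9995, 9.30, 8.97 and 8.88 in Oct4low BCCs. On this probe set Oct4med BCCs were the lowest subset, at -1.42 against Oct4low BCCs (adjusted p = 0.00223), although Oct4med replicate 2 lay within the Oct4hi range. Of the genes linked to FBXO32 in muscle wasting, 9 of 10 listed were on the table and 7 were tested, and 1 was higher and 2 lower in Oct4hi than in Oct4low BCCs (median -0.09). Over all tested genes 20.4% were higher and 14.8% lower there. FOXO1, a factor that drives FBXO32, was at 7.17 in Oct4hi, 7.32 in Oct4med and 7.43 in Oct4low BCCs (Oct4hi against Oct4low -0.25, adjusted p = 0.032). The related factors FOXO3 and FOXO4 did not pass there, at 0.10 (adjusted p = 0.366) and 0.08 (adjusted p = 0.612). BNIP3, a mitophagy receptor, changed by -0.39 (adjusted p = 0.000781). EIF4EBP1, which restrains translation, was higher by 0.32 (adjusted p = 0.00232), and TRIM63, the other ligase of muscle atrophy, was too dim to be tested.

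**Figure D2:**
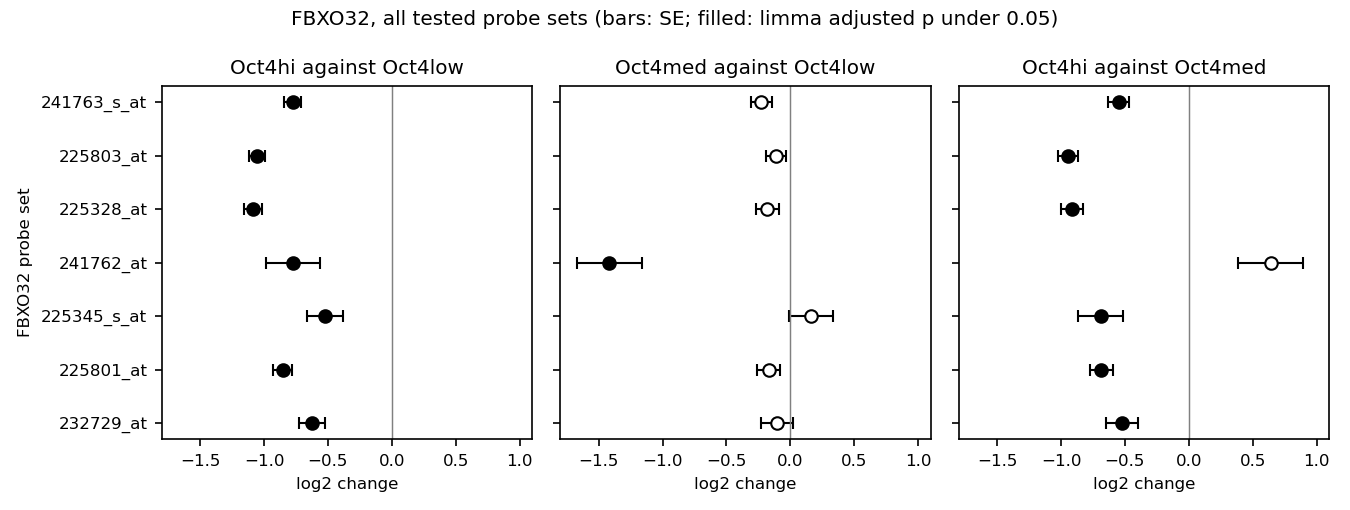
Log2 change (horizontal axis) of the 7 FBXO32 probe sets (vertical axis) in Oct4hi against Oct4low, Oct4med against Oct4low and Oct4hi against Oct4med BCCs; bars are the SE of limma's fit and filled points have an adjusted p under 0.05. All 7 lie below 0 in Oct4hi against Oct4low BCCs, between -1.09 and -0.53, and the probe set in the middle row stands apart in both comparisons with Oct4med BCCs.

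FBXO5, USP1, FBXO45 and FBXO2 were the members that passed the test as higher than Oct4low BCCs in both Oct4hi and Oct4med BCCs. FBXO5 (also called EMI1) is the inhibitor that holds the anaphase-promoting complex in check until mitosis. Its level was 9.99, 9.90, 9.84 and 9.87 in Oct4hi BCCs, 9.72 and 9.99 in Oct4med BCCs, and 9.44, 9.24, 9.18 and 9.19 in Oct4low BCCs. Every Oct4hi and Oct4med array lay above every Oct4low array, and the Oct4hi and Oct4med ranges overlapped. FBXO5 was higher by 0.63 ± 0.09 in Oct4hi (adjusted p = 0.000222) and by 0.59 ± 0.11 in Oct4med BCCs (adjusted p = 0.0021), each against Oct4low BCCs. Its second probe set gave 0.49 (adjusted p = 0.00379) and 0.34 (adjusted p = 0.0835) for these comparisons.

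USP1, the deubiquitinase that acts on FANCD2 and PCNA in DNA repair, was at 11.29, 10.94, 10.88 and 11.06 in Oct4hi BCCs, 10.84 and 11.23 in Oct4med BCCs, and 10.66, 10.67, 10.50 and 10.46 in Oct4low BCCs. Again the Oct4low arrays were all lowest. The rise was 0.47 ± 0.11 in Oct4hi against Oct4low BCCs (adjusted p = 0.00591) and 0.46 ± 0.13 in Oct4med against Oct4low BCCs (adjusted p = 0.0309). FBXO45, an F-box protein that pairs with the ligase MYCBP2, was at 9.84, 9.70, 9.67 and 9.61 in Oct4hi BCCs, 9.88 and 9.91 in Oct4med BCCs, and 9.36, 9.35, 9.29 and 9.40 in Oct4low BCCs. Both Oct4med arrays lay above all others, and the 3 subsets did not overlap. FBXO45 rose by 0.35 ± 0.07 in Oct4hi (adjusted p = 0.00252) and by 0.55 ± 0.09 in Oct4med BCCs (adjusted p = 0.000933), and Oct4hi against Oct4med BCCs was -0.20 (adjusted p = 0.111). Its second probe set passed in both comparisons too, with 0.41 and 0.46. FBXO2, which recognises glycoproteins with sugar chains, was dimmer, with means of 6.62 ± 0.07 in Oct4hi (SD, n = 4), 6.79 ± 0.15 in Oct4med (n = 2) and 6.35 ± 0.13 in Oct4low BCCs (n = 4). It was higher than in Oct4low BCCs by 0.27 (adjusted p = 0.0238) and 0.44 (adjusted p = 0.0106). The call for USP1 in Oct4med BCCs was lost without Oct4med replicate 2, Oct4low replicate 3 or Oct4low replicate 4. That for FBXO2 was lost in Oct4med BCCs without Oct4med replicate 1, and in Oct4hi BCCs without Oct4hi replicate 1 or 3 or Oct4low replicate 1, 2 or 4.

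Genes used in mitosis moved beside FBXO5 and USP1 between Oct4hi and Oct4low BCCs. Of 10 tested genes on a mitosis list, 8 were higher in Oct4hi than in Oct4low BCCs (median 0.45), 1 was higher in Oct4med than in Oct4low BCCs (median 0.10), and 5 were higher in Oct4hi than in Oct4med BCCs (median 0.26). Of all tested genes, 20.4%, 5.68% and 18.2% were higher in these comparisons. The list's mean level was 9.37 to 9.49 in Oct4hi arrays, 9.04 to 9.19 in Oct4med arrays and 8.93 to 9.04 in Oct4low arrays. The part of the cell cycle in the changes of FBXO5 and USP1 was not tested. In sorted bulk samples, more cells in a phase and more RNA per cell cannot be told apart. TOP2A, the topoisomerase of dividing cells, was the mitosis gene higher in both subsets, by 0.83 in Oct4hi (adjusted p = 2.55e-05) and by 0.38 in Oct4med BCCs (adjusted p = 0.0227).

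Promoters of FBXO5, USP1 and FBXO45 are shown from RefSeq (GRCh38.p14, 250 bases before to 50 after a listed start), because CCAAT boxes are a common feature of promoters of cell cycle genes. Capitals mark CCAAT, which reads ATTGG on the other strand, and the core letters of the element called CHR, which are TTTGAA and read TTCAAA on the other strand. The windows lie at chr6:152982992-152983291 on the minus strand for FBXO5, at chr1:62436145-62436444 on the plus strand for USP1 and at chr3:196568410-196568709 on the plus strand for FBXO45.
FBXO5: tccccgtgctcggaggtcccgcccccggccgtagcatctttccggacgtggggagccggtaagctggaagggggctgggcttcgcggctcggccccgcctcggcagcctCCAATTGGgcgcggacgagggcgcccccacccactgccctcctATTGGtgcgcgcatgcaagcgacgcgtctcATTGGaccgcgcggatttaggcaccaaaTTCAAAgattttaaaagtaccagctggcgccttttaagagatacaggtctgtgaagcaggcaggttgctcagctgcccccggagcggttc
USP1: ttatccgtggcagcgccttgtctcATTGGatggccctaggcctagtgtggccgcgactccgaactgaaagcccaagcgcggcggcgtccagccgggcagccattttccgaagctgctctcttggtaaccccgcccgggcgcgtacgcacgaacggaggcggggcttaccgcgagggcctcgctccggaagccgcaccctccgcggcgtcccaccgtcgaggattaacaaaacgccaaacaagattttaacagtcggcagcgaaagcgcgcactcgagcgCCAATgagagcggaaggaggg
FBXO45: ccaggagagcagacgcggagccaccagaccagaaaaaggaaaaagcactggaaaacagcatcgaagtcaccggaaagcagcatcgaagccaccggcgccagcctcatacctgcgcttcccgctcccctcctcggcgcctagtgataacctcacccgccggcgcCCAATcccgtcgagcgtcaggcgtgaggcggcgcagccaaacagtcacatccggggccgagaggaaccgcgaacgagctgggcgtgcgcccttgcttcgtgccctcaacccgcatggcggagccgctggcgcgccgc
The FBXO5 window held 4 CCAAT matches and 1 TTTGAA match, the USP1 window 2 CCAAT matches and the FBXO45 window 1. FBXO5 and USP1 have 2 starts each in the table, and the other window of FBXO5 held neither word, while that of USP1 held 2 TTTGAA matches and no CCAAT. The FBXO2 window held neither. On either strand, CCAAT occurs in 34.6% of all 35116 promoters of this length and in 34.3% of the 105 promoters listed for 77 of the members, and TTTGAA in 15.2% and 9.52%, so neither word marks the family. The matches are a description of the letters, not of binding.

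Of the other FBXO genes, FBXO22 was higher and FBXO41 and FBXO46 were lower in Oct4hi than in Oct4low BCCs. Of the 17 tested FBXO genes, 4 were higher and 3 lower in Oct4hi than in Oct4low BCCs (median 0.01), 4 rose and 1 fell in Oct4med against Oct4low BCCs, and 2 rose and 4 fell in Oct4hi against Oct4med BCCs. The shares were 23.5% and 17.6%, 23.5% and 5.88%, and 11.8% and 23.5%. Those of all tested genes were 20.4% and 14.8%, 5.68% and 11.7%, and 18.2% and 9.63%. FBXO22, which targets the histone demethylase KDM4A, was at 9.42, 9.40, 9.38 and 9.42 in Oct4hi BCCs, 8.98 and 9.003 in Oct4med BCCs, and 9.16, 9.06, 9.12 and 9.14 in Oct4low BCCs. Oct4hi arrays were all highest and Oct4med arrays all lowest. FBXO22 was higher in Oct4hi BCCs by 0.29 ± 0.06 against Oct4low (adjusted p = 0.00406) and by 0.42 ± 0.08 against Oct4med BCCs (adjusted p = 0.00233), and all 3 of its tested probe sets passed in both. FBXO41, an F-box gene of neurons, had means of 8.41 ± 0.04 in Oct4hi, 8.71 ± 0.03 in Oct4med and 8.77 ± 0.06 in Oct4low BCCs, a fall of 0.35 against Oct4low (adjusted p = 0.00172), but its dimmer probe set gave -0.04 (adjusted p = 0.836). FBXO46 was at 8.08 ± 0.07, 8.32 ± 0.04 and 8.31 ± 0.04 in Oct4hi, Oct4med and Oct4low BCCs, with -0.23 against Oct4low BCCs (adjusted p = 0.021), a call lost without Oct4hi replicate 2 or 3 or Oct4low replicate 2. FBXO24 was highest in Oct4med BCCs, at 5.97, 5.94, 6.04 and 6.05 in Oct4hi, 6.56 and 6.18 in Oct4med, and 5.76, 6.07, 6.005 and 5.92 in Oct4low BCCs. The rise of 0.43 against Oct4low BCCs (adjusted p = 0.0226) rested on Oct4med replicate 1, without which it was 0.24 (adjusted p = 0.261).

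Among the leucine-rich FBXL proteins, 1 of 7 tested genes was higher and 2 were lower in Oct4hi than in Oct4low BCCs. These shares were 14.3% and 28.6%, beside 20.4% and 14.8% of all tested genes. FBXL17, a quality-control ligase for proteins that pair through BTB domains, was at 8.17, 8.29, 8.25 and 8.23 in Oct4hi BCCs, 8.51 and 8.56 in Oct4med BCCs, and 8.57, 8.70, 8.83 and 8.68 in Oct4low BCCs. The 3 subsets did not overlap. FBXL17 changed by -0.46 ± 0.07 in Oct4hi against Oct4low BCCs (adjusted p = 0.000645) and by -0.30 ± 0.09 against Oct4med BCCs (adjusted p = 0.0291). FBXL20, known in mouse as a regulator of synaptic vesicle release, had means of 7.75 ± 0.12, 8.03 ± 0.03 and 8.08 ± 0.08 in Oct4hi, Oct4med and Oct4low BCCs, and its 2 tested probe sets gave -0.33 (adjusted p = 0.00649) and -0.40 (adjusted p = 0.0205) against Oct4low BCCs. FBXL13 was higher by 0.46 (adjusted p = 0.02), with overlapping arrays: 5.60 to 5.90 in Oct4hi and 4.90 to 5.65 in Oct4low BCCs. FBXL6 was higher by 0.42 in Oct4hi against Oct4med BCCs (adjusted p = 0.00546), and its dimmer probe set gave -0.19 (adjusted p = 0.223). Of the 4 tested FBXW genes, which recognise phosphorylated substrates, none passed in Oct4hi against Oct4low BCCs. FBXW7, the ligase for cyclin E and MYC, was at 7.56 ± 0.14 in Oct4hi, 7.35 ± 0.18 in Oct4med and 7.53 ± 0.05 in Oct4low BCCs (Oct4hi against Oct4low 0.03, adjusted p = 0.836). FBXW11, a ligase for beta-catenin, gave 0.21 (adjusted p = 0.136), FBXW4 -0.20 (adjusted p = 0.0613), and FBXW12 passed only in the comparisons with Oct4med BCCs, by -0.43 in Oct4med against Oct4low BCCs (adjusted p = 0.0386). With 1 array left out, the call of FBXL6 was lost without Oct4med replicate 1, and that of FBXL17 against Oct4med BCCs without either Oct4med array or Oct4hi replicate 1 or 4. The call of FBXW12 in Oct4med against Oct4low BCCs was lost without Oct4med replicate 1, Oct4hi replicate 1 or Oct4low replicate 2, 3 or 4, and that of FBXL13 without Oct4hi replicate 1 or 2 or Oct4low replicate 4.

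The 4 cullins on the table divided evenly. CUL9 and CUL7, large cullins that bind p53, were lower in Oct4hi than in Oct4low BCCs, and CUL4B and CUL5 were higher. CUL9 was at 6.02, 6.36, 6.11 and 6.32 in Oct4hi BCCs, 6.57 and 6.67 in Oct4med BCCs, and 6.69, 6.54, 6.69 and 6.58 in Oct4low BCCs, so that the Oct4hi arrays were all lowest. Its change was -0.42 ± 0.09 against Oct4low (adjusted p = 0.00311) and -0.41 ± 0.11 against Oct4med BCCs (adjusted p = 0.0148). CUL7 had 7.64 ± 0.11 in Oct4hi, 7.70 ± 0.20 in Oct4med and 7.88 ± 0.05 in Oct4low BCCs (-0.24, adjusted p = 0.0393), a call lost without any of the Oct4low arrays or Oct4hi replicate 1, 2 or 4. CUL4B, a scaffold of DDB1 ligases, was at 8.76, 8.71, 8.54 and 8.65 in Oct4hi BCCs, 8.47 and 8.46 in Oct4med BCCs, and 8.38, 8.42, 8.37 and 8.35 in Oct4low BCCs. No arrays overlapped between the subsets, and the rise against Oct4low BCCs was 0.28 ± 0.07 (adjusted p = 0.00832). CUL5, the scaffold of SOCS-box ligases, was higher by 0.39 (adjusted p = 0.0179) on its brightest probe set, with means of 7.93 ± 0.16 in Oct4hi, 7.73 ± 0.30 in Oct4med and 7.54 ± 0.13 in Oct4low BCCs, but its other probe sets gave 0.09 (adjusted p = 0.574) and 0.00 (adjusted p = 1). The CUL5 call was lost without Oct4hi replicate 1 or Oct4low replicate 4, and that of CUL9 against Oct4med BCCs without either Oct4med array.

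Partners of the cullins also went both ways. Of 9 tested genes of the SCF core and cullin regulators, 2 were higher and 2 lower in Oct4hi than in Oct4low BCCs (median -0.02), 1 fell in Oct4med against Oct4low BCCs, and in Oct4hi against Oct4med BCCs 1 rose and 1 fell. Over all tested genes the shares were 20.4% and 14.8%, 11.7%, and 18.2% and 9.63%. SKP2, the F-box protein that targets the cell cycle inhibitor p27, rose by 0.38 (adjusted p = 0.00143) and CCNF, an F-box protein named cyclin F, by 0.40 (adjusted p = 0.00161), both in Oct4hi against Oct4low BCCs. SKP1, the adaptor that joins F-box proteins to the cullin, changed by -0.34 (adjusted p = 0.00353), and DCUN1D1, which promotes neddylation of cullins, by -0.28 (adjusted p = 0.00865). Of 5 tested subunits of the anaphase-promoting complex, the ligase that FBXO5 inhibits, CDC27 was higher in Oct4hi by 0.49 (adjusted p = 0.006) and in Oct4med BCCs by 0.50 (adjusted p = 0.0251), each against Oct4low BCCs. No other subunit passed in those comparisons, and CDC16 was lower in Oct4hi than in Oct4med BCCs by -0.32 (adjusted p = 0.0251).

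Of the 10 tested UBE2 genes, 2 were higher and 1 lower in Oct4hi than in Oct4low BCCs, 2 fell in Oct4med against Oct4low BCCs, and 4 rose and 1 fell in Oct4hi against Oct4med BCCs. These shares were 20% and 10%, 20%, and 40% and 10%. Those of all tested genes were 20.4% and 14.8%, 11.7%, and 18.2% and 9.63%. UBE2K, an E2 that builds chains recognised by the proteasome, was at 8.82, 9.002, 8.88 and 8.82 in Oct4hi BCCs, 9.40 and 9.36 in Oct4med BCCs, and 9.25, 9.31, 9.31 and 9.25 in Oct4low BCCs. All Oct4hi arrays lay below all others. UBE2K was lower in Oct4hi BCCs, at -0.40 ± 0.07 against Oct4low (adjusted p = 0.00102) and -0.50 ± 0.08 against Oct4med BCCs (adjusted p = 0.00135). UBE2J1 and UBE2G2, which act on misfolded proteins at the endoplasmic reticulum, were the E2 enzymes that rose in Oct4hi against Oct4low BCCs. UBE2J1 was at 10.84, 10.85, 10.87 and 10.86 in Oct4hi BCCs, 10.47 and 10.59 in Oct4med BCCs, and 10.55, 10.53, 10.53 and 10.54 in Oct4low BCCs. The SD was 0.01 in both Oct4hi and Oct4low BCCs, and the rise was 0.32 ± 0.06 against Oct4low BCCs (adjusted p = 0.00215). UBE2G2 was at 9.88, 10.08, 9.94 and 10.04 in Oct4hi BCCs, 9.37 and 9.62 in Oct4med BCCs, and 9.63, 9.70, 9.78 and 9.67 in Oct4low BCCs. It was higher in Oct4hi BCCs by 0.29 ± 0.08 against Oct4low (adjusted p = 0.014) and by 0.49 ± 0.10 against Oct4med BCCs (adjusted p = 0.00387), and its second probe set gave 0.43 against Oct4low BCCs (adjusted p = 0.00308). Without Oct4med replicate 1 the call against Oct4med BCCs was lost.

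Upstream of the E2 enzymes, 2 of 3 tested genes of an E1 list, UBA1 and UBA6, were higher in Oct4hi than in Oct4low BCCs. Of all tested genes 20.4% were higher. The third, SAE1, belongs to the E1 of the modifier SUMO and not of ubiquitin, and gave 0.23 (adjusted p = 0.0759). UBA1, the main ubiquitin-activating enzyme, was at 9.76, 9.90, 9.86 and 9.81 in Oct4hi BCCs, 9.20 and 9.20 in Oct4med BCCs, and 9.57, 9.55, 9.52 and 9.60 in Oct4low BCCs. The 3 subsets did not overlap, with Oct4med lowest. UBA1 changed by 0.27 in Oct4hi (adjusted p = 0.00722) and by -0.36 in Oct4med BCCs (adjusted p = 0.00726) against Oct4low BCCs, and by 0.63 in Oct4hi against Oct4med BCCs (adjusted p = 0.000186). UBA6, which charges UBE2Z, rose by 0.30 in Oct4hi against Oct4low BCCs (adjusted p = 0.0371). The gene of p97 itself, the segregase that pulls marked proteins out of membranes, was not among the genes on the table. Of 7 tested cofactor genes of p97, 3 were higher and none lower in Oct4hi than in Oct4low BCCs (median 0.20). Of all tested genes 20.4% were higher and 14.8% lower. The 3 were FAF2, the anchor of p97 at the endoplasmic reticulum, by 0.44 (adjusted p = 0.00762), FAF1 by 0.37 (adjusted p = 0.00699) and UBXN4 by 0.33 (adjusted p = 0.0195). FAF2 and UBXN4 were also higher in Oct4med than in Oct4low BCCs, by 0.45 (adjusted p = 0.0314) and 0.37 (adjusted p = 0.0434), and NSFL1C was lower there by -0.31 (adjusted p = 0.0136).

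Of the 24 tested USP deubiquitinases, 5 rose and 1 fell in Oct4hi against Oct4low BCCs (median 0.12), shares of 20.8% and 4.17% beside the background of 20.4% and 14.8%. In Oct4hi against Oct4med BCCs 4 were higher and 3 lower, shares of 16.7% and 12.5% beside 18.2% and 9.63%. USP9X, a deubiquitinase that stabilises the survival protein MCL1, was at 11.15, 11.09, 10.99 and 11.10 in Oct4hi BCCs, 10.52 and 10.56 in Oct4med BCCs, and 10.71, 10.72, 10.77 and 10.68 in Oct4low BCCs. USP11, a deubiquitinase of DNA repair, was at 10.05, 10.08, 10.05 and 10.15 in Oct4hi BCCs, 9.55 and 9.66 in Oct4med BCCs, and 9.80, 9.73, 9.69 and 9.74 in Oct4low BCCs. Both genes lie in the same order of subsets, with Oct4hi highest and Oct4med lowest and no overlap. USP9X was higher in Oct4hi BCCs by 0.36 ± 0.07 against Oct4low (adjusted p = 0.00142) and by 0.54 ± 0.08 against Oct4med BCCs (adjusted p = 0.000604), and its second tested probe set gave 0.43 and 0.57. USP11 was higher by 0.34 ± 0.07 (adjusted p = 0.00205) and 0.48 ± 0.08 (adjusted p = 0.00139).

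USP47, which acts on DNA polymerase beta, was at 9.23, 9.12, 8.91 and 9.20 in Oct4hi BCCs, 8.70 and 9.12 in Oct4med BCCs, and 8.74, 8.67, 8.49 and 8.58 in Oct4low BCCs. The rise of 0.49 ± 0.11 in Oct4hi against Oct4low BCCs (adjusted p = 0.00392) was seen on its brightest probe set, and the other gave 0.01 (adjusted p = 0.97). USP49, which removes ubiquitin from histone H2B, was the USP gene that fell, by 0.31 against Oct4low (adjusted p = 0.00754), with -0.44 against Oct4med BCCs (adjusted p = 0.00498). Its level was 7.51 ± 0.09 in Oct4hi, 7.95 ± 0.03 in Oct4med and 7.82 ± 0.09 in Oct4low BCCs. Its 3 dimmer probe sets gave 0.27, -0.01 and 0.11 against Oct4low BCCs, none of which passed. USP43 rose by 0.35 (adjusted p = 0.032), with arrays at 6.49 to 6.74 in Oct4hi and 6.02 to 6.48 in Oct4low BCCs. In Oct4med against Oct4low BCCs 3 USP genes were higher: USP1, USP31 by 0.31 (adjusted p = 0.0264) and USP37, a deubiquitinase of cyclin A, by 0.28 (adjusted p = 0.0351). USP8, which acts on endosomal receptors, and USP16, which acts on histone H2A, were higher in Oct4hi than in Oct4med BCCs by 0.33 and 0.34, each on 2 probe sets. With 1 array left out, the call of USP43 was lost without Oct4hi replicate 2 or 4 or Oct4low replicate 1, 2 or 4, and those of USP31 and USP37 without either Oct4med array, among others.

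**Figure D3:**
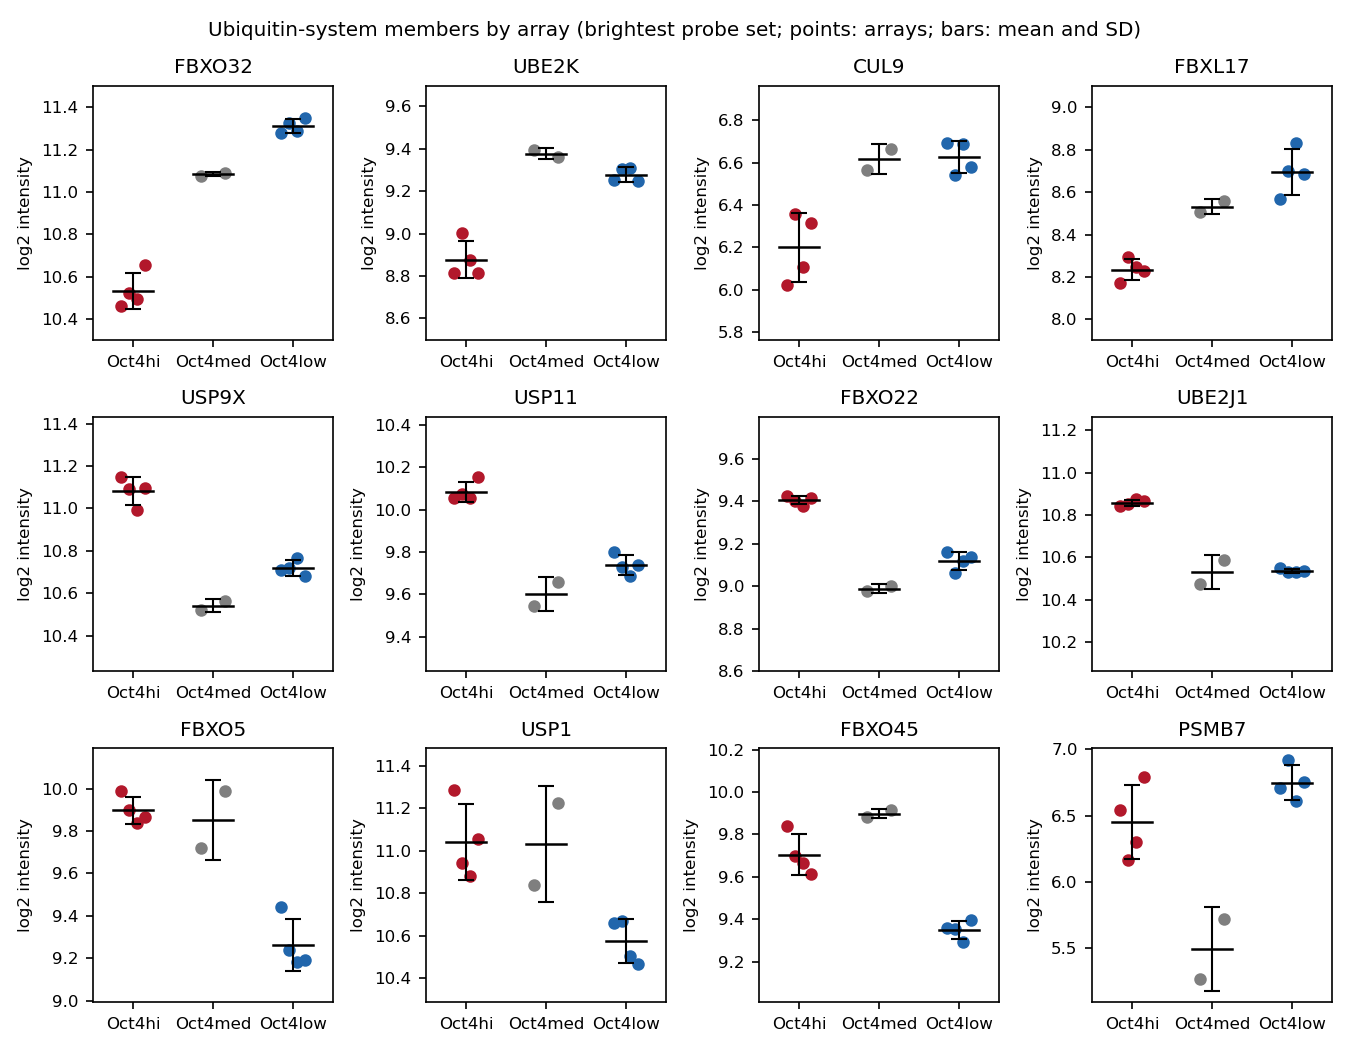
Log2 intensity (vertical axis) of 12 members in each of the 10 arrays, by subset (horizontal axis: Oct4hi, Oct4med, Oct4low); points are arrays, horizontal lines are means and bars are SDs. FBXO32, UBE2K, CUL9 and FBXL17 are lowest in Oct4hi BCCs, USP9X, USP11, FBXO22 and UBE2J1 are highest in Oct4hi BCCs, FBXO5, USP1 and FBXO45 are lowest in Oct4low BCCs, and PSMB7 is lowest in Oct4med BCCs.

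Among deubiquitinases outside the USP family, of 16 tested, 4 were higher and 1 lower in Oct4hi than in Oct4low BCCs (median 0.02), and 4 were lower and none higher in Oct4med than in Oct4low BCCs (median -0.08). Over all tested genes, 20.4% were higher and 14.8% lower in the first comparison, and 5.68% higher and 11.7% lower in the second. ATXN3, the ataxin deubiquitinase, rose by 0.42 in Oct4hi against Oct4low BCCs (adjusted p = 0.00289), and OTUB2 changed by -0.49 in Oct4hi (adjusted p = 0.000542) and by -0.42 in Oct4med BCCs (adjusted p = 0.00739). TNFAIP3, the A20 enzyme that dampens NF-kB signalling, was at 10.83 in Oct4hi, 9.74 in Oct4med and 10.79 in Oct4low BCCs, a change of -1.05 in Oct4med against Oct4low BCCs (adjusted p = 5.69e-06) and of 1.09 in Oct4hi against Oct4med BCCs (adjusted p = 2.8e-06). Of 16 tested HECT and RBR ligases, 4 were higher and 2 lower in Oct4hi than in Oct4low BCCs (median -0.01), and 1 rose and 3 fell in Oct4med against Oct4low BCCs, beside the same shares of all tested genes. HUWE1, a ligase of MCL1 and p53, rose by 0.40 (adjusted p = 0.00208) and ITCH by 0.35 (adjusted p = 0.00262) in Oct4hi against Oct4low BCCs. TRIP12 fell in both, by 0.62 in Oct4hi (adjusted p = 0.004) and by 1.14 in Oct4med BCCs (adjusted p = 0.000488). It is measured by 1 probe set on this table, near the array median at 4.84 and 5.12 in Oct4med BCCs. The part of RNA quality or labelling in its fall was not tested.

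The proteasome subunits left on the table did not all change in the same direction. After the authors' filter most had 1 probe set, and several were dim. That of PSMB1, with means of 5.31 in Oct4hi, 5.13 in Oct4med and 5.47 in Oct4low BCCs, lay near the array medians. Whether the subunits of the whole particle moved together cannot be read from these probe sets. Of the 6 subunits of the 20S core, PSMA5 alone passed in Oct4hi against Oct4low BCCs. Of the 4 genes named for the 19S particle, among them the assembly chaperone PSMD9, PSMC4 alone passed there. Over all tested genes, 20.4% were higher and 14.8% lower in that comparison. PSMA5, an alpha ring subunit, was at 6.47, 6.61, 6.32 and 6.59 in Oct4hi BCCs, 6.85 and 6.89 in Oct4med BCCs, and 6.93, 6.85, 7.02 and 6.74 in Oct4low BCCs. The Oct4hi arrays were all lowest, with -0.39 ± 0.09 against Oct4low (adjusted p = 0.00474) and -0.37 ± 0.11 against Oct4med BCCs (adjusted p = 0.0227), the second of which was lost without either Oct4med array. PSMC4, an ATPase of the base that unfolds substrates, was at 10.68, 10.81, 10.68 and 10.74 in Oct4hi BCCs, 10.49 and 10.57 in Oct4med BCCs, and 10.52, 10.39, 10.52 and 10.47 in Oct4low BCCs. Its rise of 0.25 ± 0.07 against Oct4low BCCs (adjusted p = 0.0122) was 0.13 (adjusted p = 0.146) with the values quantile normalized again.

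The others of these genes differed by less than the test could separate in Oct4hi against Oct4low BCCs. The changes were -0.13 for PSMA3 (adjusted p = 0.486), 0.15 for PSMA7 (adjusted p = 0.219), -0.16 for PSMB1 (adjusted p = 0.253), -0.15 for PSMB2 (adjusted p = 0.236), -0.30 for PSMB7 (adjusted p = 0.114), -0.11 for PSMC2 (adjusted p = 0.528), 0.21 for the ubiquitin receptor PSMD4 (adjusted p = 0.198) and 0.04 for the assembly chaperone PSMD9 (adjusted p = 0.769). PSMA7 passed in Oct4hi against Oct4med BCCs, at 0.35 (adjusted p = 0.0385), but not without Oct4med replicate 1, any of Oct4hi replicates 1, 2 and 4, or Oct4low replicate 2 or 4. The activator PSME3, a cap that lets the core degrade some nuclear proteins without ubiquitin, was at 9.98, 9.99, 10.11 and 10.05 in Oct4hi BCCs, 9.79 and 9.83 in Oct4med BCCs, and 9.74, 9.72, 9.65 and 9.72 in Oct4low BCCs. Its subsets did not overlap, and it rose by 0.33 ± 0.06 against Oct4low BCCs (adjusted p = 0.00243), with 0.33 on its second probe set. PSME4, a cap linked to histone turnover, passed only in Oct4hi against Oct4med BCCs, by 0.73 (adjusted p = 0.0284), and its Oct4med arrays were far apart, at 6.64 and 7.64. Without Oct4med replicate 1 that change was 0.23 (adjusted p = 0.481).

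Of 6 tested genes for proteasome assembly and ubiquitin receptors, 2 were higher in Oct4hi than in Oct4low BCCs, 2 fell in Oct4med against Oct4low BCCs and 2 rose in Oct4hi against Oct4med BCCs. Of all tested genes, 20.4%, 11.7% and 18.2% changed in these ways. PSMG1, an assembly chaperone of the core, had means of 11.10 in Oct4hi, 10.67 in Oct4med and 10.76 in Oct4low BCCs, a rise of 0.34 against Oct4low BCCs (adjusted p = 0.0034). UBQLN2, a shuttle that carries marked proteins to the proteasome, was at 9.59 in Oct4hi, 8.83 in Oct4med and 9.15 in Oct4low BCCs. It rose by 0.44 in Oct4hi (adjusted p = 0.000881) and changed by -0.33 in Oct4med BCCs (adjusted p = 0.025) against Oct4low BCCs. Of 3 tested genes of the factors that drive proteasome transcription, NFE2L2, the NRF2 factor of the oxidative stress response, was higher in Oct4hi than in Oct4low BCCs by 0.51 (adjusted p = 0.00564), and MAFF, its small partner, lower by -0.24 (adjusted p = 0.0124). TGACNNNGC, the core of the element such factors bind, occurs on either strand in 13.3% of all promoters and in 20 of the 105 promoters of members, among them that of PSMC4. The genes of the ubiquitin precursors, a list of 4, had no probe set named for them on the table used here.

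The deepest falls belonged to Oct4med BCCs. PSMB7, a catalytic beta subunit, was at 6.54, 6.16, 6.30 and 6.79 in Oct4hi BCCs, 5.27 and 5.72 in Oct4med BCCs, and 6.71, 6.92, 6.61 and 6.75 in Oct4low BCCs. UBE2B, an E2 of DNA damage tolerance, was at 5.34, 5.24, 5.38 and 5.78 in Oct4hi BCCs, 4.36 and 4.65 in Oct4med BCCs, and 5.40, 5.96, 5.92 and 5.77 in Oct4low BCCs. Both Oct4med arrays lay below all others for both genes. PSMB7 changed by -1.25 ± 0.17 (adjusted p = 0.000336) and UBE2B by -1.26 ± 0.17 (adjusted p = 0.000397) in Oct4med against Oct4low BCCs, and by 0.95 (adjusted p = 0.00193) and 0.93 (adjusted p = 0.00273) in Oct4hi against Oct4med BCCs. FBXO7, a parkinsonism gene that binds a proteasome regulator, was at 4.95, 5.21, 4.34 and 5.20 in Oct4hi, 3.92 and 4.47 in Oct4med, and 5.05, 5.37, 5.75 and 5.29 in Oct4low BCCs, a change of -1.18 ± 0.25 in Oct4med against Oct4low BCCs (adjusted p = 0.00582). UBE2Z changed by -0.62 (adjusted p = 0.0107), USP34, a deubiquitinase of Wnt signalling, by -0.45 (adjusted p = 0.0324), and USP54 by -0.35 (adjusted p = 0.0197). A second USP34 probe set gave -1.04 (adjusted p = 0.00262) and the other 3 gave -0.11 to 0.20, none of which passed.

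PSMB7, UBE2B, FBXO7 and UBE2Z are each measured by 1 probe set on this table, and FBXO7 was at or above the array median in 5 of the 10 arrays. The authors' filter had left out probe sets near background or with little change. Whether other probe sets of these genes fell cannot be read here. The manufacturer's control for the front of the large ribosomal RNA moved with these genes, at 13.57 ± 0.03 in Oct4hi, 12.70 ± 0.09 in Oct4med and 13.60 ± 0.07 in Oct4low BCCs, and the control for its middle was at 11.87 ± 0.06, 11.50 ± 0.18 and 11.98 ± 0.04. Other controls did not: that for the end of the same RNA was at 5.21 ± 0.18 in Oct4hi, 5.27 ± 0.20 in Oct4med and 5.30 ± 0.07 in Oct4low BCCs, that for the middle of the small ribosomal RNA at 13.14 ± 0.13, 12.98 ± 0.25 and 12.84 ± 0.09, and that for the front of the actin transcript at 11.74 ± 0.38, 11.97 ± 0.24 and 11.65 ± 0.32. The part of RNA quality or labelling in these falls was not tested. Without Oct4med replicate 1, PSMB7 and UBE2B kept their calls against Oct4low BCCs, and FBXO7, UBE2Z, USP34 and USP54 did not. The call of UBE2B in Oct4hi against Oct4med BCCs was lost without that array, and that of PSMB7 was kept. USP54 also lost its call without Oct4med replicate 2, and USP34 without Oct4low replicate 1 or 2.

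The symbol rule also caught 11 entries that are not themselves enzymes or subunits, of which 8 were tested: antisense and divergent transcripts, the transcribed pseudogenes UBE2Q2P16 and USP32P2, and genes named for a partner. UBE2DNL, another transcribed pseudogene by its annotation, stood among the UBE2 genes and was too dim to be tested. The antisense transcripts PSMB8-AS1 and PSMD6-AS2 were lower in Oct4hi than in Oct4low BCCs, with no overlap of arrays. PSMB8-AS1 was at 6.44 ± 0.13 in Oct4hi and 6.82 ± 0.14 in Oct4low BCCs (-0.38, adjusted p = 0.00756), and PSMD6-AS2 at 6.14 ± 0.08 in Oct4hi and 6.51 ± 0.21 in Oct4low BCCs (-0.37, adjusted p = 0.0128). PSMA3-AS1 was lower in Oct4med than in Oct4low BCCs by -0.43 (adjusted p = 0.00682), a call lost without Oct4med replicate 1, and its second probe set gave -0.67 (adjusted p = 0.0191). PSMC3IP, a meiotic recombination factor, rose by 0.33 in Oct4hi BCCs (adjusted p = 0.0167), and the pseudogene UBE2Q2P16, whose probe set may share sequence with its parent gene UBE2Q2, was higher in Oct4hi than in Oct4med BCCs by 0.40 (adjusted p = 0.0347), though not without Oct4hi replicate 2 or 4 or Oct4med replicate 1. UBE2Q2 itself gave 0.31 there (adjusted p = 0.0303).

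**Figure D4:**
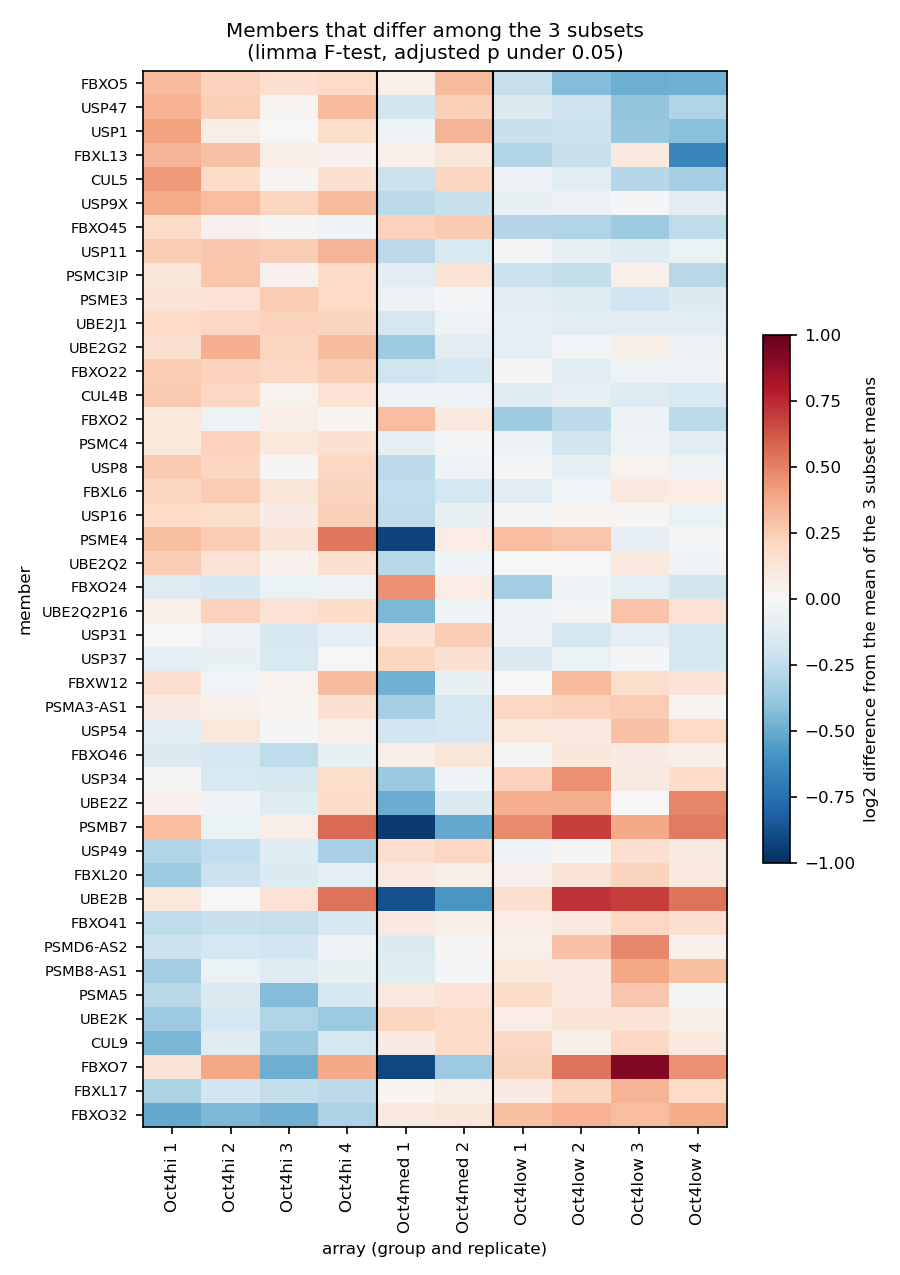
Log2 difference of each array from the mean of the 3 subset means (colour, red higher and blue lower) for the 44 members with an adjusted p under 0.05 in limma's F-test across the subsets (rows, ordered by Oct4hi minus Oct4low); columns are the 10 arrays, Oct4hi, Oct4med and Oct4low from left to right. FBXO5 heads the order and FBXO32 ends it, and UBE2B, PSMB7 and FBXO7 are blue in both Oct4med arrays.

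Agreement between probe sets of a gene was uneven. Of the 29 members called in Oct4hi against Oct4low BCCs, 13 had another tested probe set, and for 9 of these another was called in the same direction and for none in the opposite one. Of the 15 called in Oct4med against Oct4low BCCs, 6 had another, 4 of them called the same way, and of the 29 called in Oct4hi against Oct4med BCCs, 14 had another, 6 of them called the same way. No member called in a comparison had another probe set called in the opposite direction there. Members whose brightest probe set was not called were not counted, and some had such a probe set. In Oct4med against Oct4low BCCs, CUL5 gave 0.20 on its brightest and -0.41 (adjusted p = 0.0266) on a dimmer probe set. FBXL6 gave -0.22 and 0.37 (adjusted p = 0.0331) in the same way.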

How the data were processed

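Total RNA of sorted MDA-MB-231 subsets was measured on 10 Affymetrix U133 Plus 2.0 arrays (4 Oct4hi, 2 Oct4med, 4 Oct4low), with 100 ng of RNA for each. The deposited values are log2 intensities, which the authors corrected for background and RMA normalized in BRB-Array Tools before leaving out probe sets near background or with little change (their filter was a change of 1.2-fold in 20% of arrays). The paper says that the RNA came from separate sets of cells, so arrays of different subsets may share a set. Replicate numbers did not pair the arrays.

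Symbols came from the platform annotation, and 4 further probe sets with several symbols were left out. Control probe sets were not tested. A probe set was tested when it reached the median of its array in 2 or more arrays, which left 13872. The 3 subset means were fitted by limma (3.58.1, R 4.3.3) on all 10 arrays, and two-sided p-values were adjusted by Benjamini-Hochberg over all tested probe sets, with 0.05 as the threshold. Backgrounds are shares of the 7639 tested genes. Scripts were tested on simulated data. Array number limits the precision, most for Oct4med BCCs.

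Named genes were, among members past the threshold whose subsets did not overlap, the 12 largest rises and falls of Oct4hi against Oct4low BCCs and the 8 of each other comparison, up to 4 of each role class with the largest change, every proteasome subunit and cullin, FBXO32, and up to 3 genes of each pathway list and comparison. Further called members were added after their values were seen. Members, pathway lists and marker lists were chosen with earlier results of these data known. Marker lists not given in full in the report were luminal cells (2 of 4 tested genes lower and none higher in Oct4hi than in Oct4low BCCs), leukocytes (1 of 2 higher), stroma (0 of 3) and erythroid cells (0 of 1). Alternatives were no filter and a filter at the 75th percentile, quantile normalization again, a common array median, array weights, a robust prior with an intensity trend, fitting the compared subsets alone, the methods' t-test, a block for the replicate number, leaving out probe sets whose suffix is _x_at or _s_at, the mean of all tested probe sets of a gene, and each array left out in turn. Other promoter words were looked at, and the CCAAT, CHR and TGACNNNGC words reported were chosen after that. The Oct4 transcript is not analysed here.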

Additional observations from a re-analysis of the deposited data

Results flagged for a closer look

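Among 104 groups of 4 arrays examined for members and subsets, 2 had an array apart from the others by Dixon's test, where chance flags about 1 in 20. CUL7 in Oct4low BCCs was at 7.956 in replicate 4 and at 7.854 to 7.870 in the other replicates. PSMB2 in Oct4hi BCCs was at 5.454 in replicate 3 and at 5.761 to 5.818 in the others.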

How the results depend on the processing

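Of 69 calls for named members, 25 were kept under every alternative that could be run for them and with each array left out, among them FBXO32, UBE2K, USP9X, USP11 and FBXO22 in both comparisons of Oct4hi BCCs, FBXO45 in both comparisons with Oct4low BCCs, FBXO5, USP1, USP47, UBE2J1, PSME3, CUL4B, CUL9, FBXL17, FBXL20 and PSMA5 in Oct4hi against Oct4low BCCs, and PSMB7 in Oct4med against Oct4low BCCs. FBXO5, USP1, USP47, UBE2J1, PSME3 and CUL4B had no tested probe set left without those with suffix _x_at or _s_at, so that this alternative gave no value for them. In Oct4hi against Oct4low BCCs, CUL5 was at 0 (adjusted p = 1) without these probe sets, and USP49 changed sign, at 0.0147 (adjusted p = 0.894) with the mean of all its probe sets. Without those suffixes, members higher in Oct4hi than in Oct4low BCCs numbered 8, not 17, and those higher in Oct4med BCCs 4, not 7, with fewer members tested. The 7 members higher in Oct4med than in Oct4low BCCs became 4 with array weights, 4 with only those subsets in the fit and 1 by the methods' t-test, and the 8 lower members became 5 with array weights and 2 by the methods' t-test. The 17 members higher in Oct4hi than in Oct4med BCCs became 11 with no filter, 10 with quantile normalization again, 11 with only those subsets in the fit and 6 by the methods' t-test. The 12 lower members became 5 with no filter, 4 with a common median, 5 with array weights, 7 with only those subsets in the fit and 7 by the methods' t-test. Replicate numbers did not pair the arrays (same-numbered arrays deviated together at r = -0.264 to 0.277). Arrays of different numbers did so at r = -0.508 to 0.508. Whether arrays share a set of cells under other numbers cannot be told from the labels, and the main fit paired none. With the replicate block, Oct4hi against Oct4low BCCs kept 17 higher and 12 lower members, Oct4med against Oct4low BCCs had 3 higher and 5 lower, Oct4hi against Oct4med BCCs had 10 higher and 4 lower, and 48 of the 69 calls were kept. With each array left out in turn, members higher and lower numbered 12 to 22 and 10 to 14 in Oct4hi against Oct4low BCCs, 4 to 7 and 3 to 10 in Oct4med against Oct4low BCCs, 4 to 23 and 3 to 13 in Oct4hi against Oct4med BCCs, and 30 to 49 by the F-test. Counts of Oct4med against Oct4low BCCs moved by over 1.5 times without Oct4med replicate 1 (4 higher, 3 lower) and without Oct4low replicate 4 (4 higher). Counts of Oct4hi against Oct4med BCCs did so without Oct4med replicate 1 (4 higher, 3 lower), Oct4med replicate 2 (6 lower), Oct4hi replicate 1 (11 higher, 7 lower), Oct4hi replicate 2 (7 lower) and Oct4hi replicate 4 (10 higher). The cause of these differences was not tested. Probe sets near the array median, as those of FBXO7 and UBE2B, limit what can be said of them.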
